A study of Homo sapiens with 4 samples.

Results

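The genes of complement, coagulation and fibrinolysis were examined in A549 cells, a human lung adenocarcinoma (LUAD) line. The set held 35 genes, chosen by gene symbol, with earlier results of these data known, from 57905 genes in the deposited count matrix. It comprised 5 complement components, 7 complement regulators, 6 clotting factors and starters, 3 fibrinogen chains, 9 anticoagulants and protease inhibitors, 3 fibrinolysis genes and 2 protease-activated receptors. All 35 symbols were found in the matrix, and 27 of the genes reached a mean of at least 1 CPM (counts scaled to a common library size) over the libraries.

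The study made 4 RNA-seq libraries, 1 per condition. Stable knockdown cells carried an shRNA against DCBLD2 in a puromycin-selected lentiviral vector (shDCBLD2), and their control carried a scramble sequence (sc). The other pair carried either the empty lentiviral vector with blasticidin selection or the same vector with the human DCBLD2 coding sequence behind the EF1 promoter. As far as the methods state, lines were made by infection with lentivirus from 293T cells and antibiotic selection, and the labels give no further treatment. DCBLD2, a transmembrane receptor-like protein, is the gene that the study altered, and the comparisons ask which genes differ with it. The knockdown library is titled shD5, but the sources used here do not link that title to any of the designed hairpins. Nor do they say whether each line was a pool or a clone. Since no condition has a replicate, each comparison is between libraries, no test between conditions was possible, and the intervals given with the ratios are 95% exact Clopper-Pearson intervals that cover counting error only.

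Complement is a cascade of plasma proteases that converges on C3, whose cleavage tags surfaces for uptake and starts the membrane attack complex. Coagulation is a second cascade, started by tissue factor, in which thrombin turns fibrinogen into fibrin, while plasmin, made from plasminogen by its activators, dissolves the clot. The liver makes most of the circulating proteins of both cascades, and epithelial cells of the lung and their tumours are known to express some of them together with membrane-bound regulators that shield the cells.

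DCBLD2 itself went against the label of 1 library. Its level was 504 CPM in sc, 197 CPM in shDCBLD2 and 434 CPM in the library of the empty vector (vector library). The library labelled DCBLD2 overexpression stood below that, at 242 CPM, with a log2 ratio to the vector library of -0.84 (interval -0.90 to -0.79). The ratio of shDCBLD2 to sc was -1.35 (log2), as labelled. The library that goes against its label is called the overexpression-labelled library below, and no direction below is drawn from a dose of DCBLD2. Library totals lay between 16601633 and 21537283 counts, the largest 1.30 times the smallest. Of the defining markers, all 6 epithelial ones were above 3 counts in every library, whereas 4 of 6 alveolar type II markers were at 3 counts or fewer in 3 libraries and 2 of 6 in the overexpression-labelled library. Summed epithelial markers were between 12573 CPM in shDCBLD2 and 19220 CPM in the overexpression-labelled library. EPCAM and KRT19 were at least 2-fold higher in the latter than in the vector library, and EPCAM, KRT19 and CDH1 were at least 2-fold lower in shDCBLD2 than in sc, and their part in the results was not tested. Of 10 hepatocyte markers, 8 or 9 were at 3 counts or fewer in every library, and albumin had at most 1 count. All 7 measured endothelial markers together stayed between 0.185 and 0.490 CPM. Summed blood and platelet markers were 13.3, 7.19, 22.8 and 29.9 CPM in sc, shDCBLD2, the vector library and the overexpression-labelled library. Of these 8 markers 3 were past the filter, whereas PTPRC, the pan-leukocyte marker, was at 0 in all 4 libraries. Summed fibroblast markers were 34.7 CPM in sc, 55.1 CPM in shDCBLD2, 36.3 CPM in the vector library and 74.7 CPM in the overexpression-labelled library, where COL1A2 and COL3A1 were past 2-fold above the vector library, and this too was not tested as a part of the results. In cell populations, fewer expressing cells and less RNA per cell cannot be told apart.

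Between the overexpression-labelled library and the vector library, 11 of the 27 genes were at least 2-fold higher with an interval excluding no change, against 6.42% of the 13966 genes past the same filter. They were the fibrinogen chains FGA, FGB and FGG, the complement genes C3, CFB and VTN, the anticoagulant and inhibitor genes TFPI2, THBD and SERPINA1, and the initiators F3 and PLAT. Only F2RL1 was at least 2-fold lower among the 27, against 5.35% of all genes. The median log2 ratio of the 27 was 0.45, and that of all genes was -0.04. Between shDCBLD2 and sc, 9 of the 27 were at least 2-fold lower (C3, C5, CFB, VTN, FGA, FGB, FGG, TFPI and SERPINA1), against 5.62% of all genes, and 0 were higher, against 1.16%. There the median was -0.32, and that of all genes was 0.01. The vector library and sc, both labelled as controls but separately made lines, were compared as well. This is a single pair, so it gives no spread between lines, and it compares controls only if the vector label is right. Relative to sc, 1 of the 27 was at least 2-fold higher in the vector library (PLAU), against 2.22% of all genes, and 4 were lower (FGA, FGB, FGG and SERPINA1), against 1.89%. This comparison shares a library with each of the others. The members, and the further gene lists below, were chosen with earlier results of these data known. Their shares and medians against all genes therefore describe the lists and are not independent support. Genes with a level in only some libraries entered these counts through those libraries: SERPINA1 was under 1 CPM in shDCBLD2 and in the vector library, CFB in shDCBLD2 and F3 in the vector library.

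**Figure D1:**
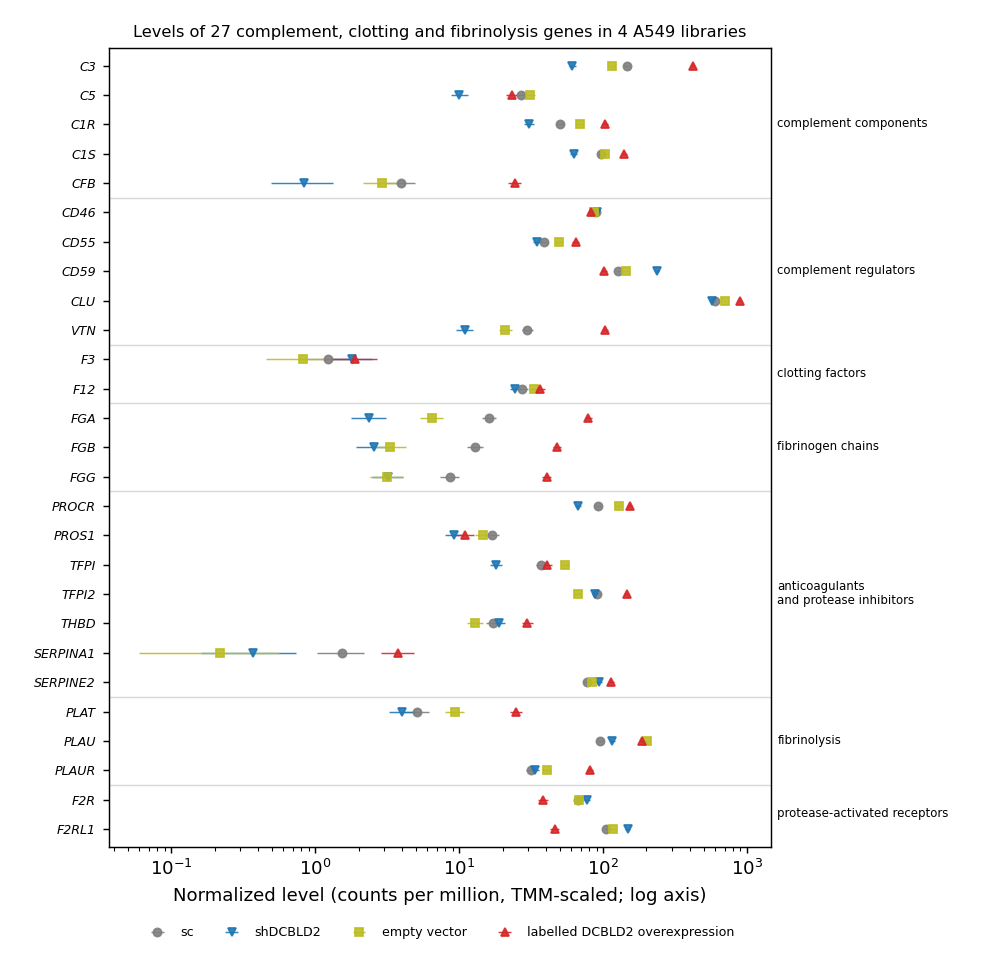
Normalized level (TMM-scaled CPM, log axis) of the 27 genes past the filter in each of the 4 libraries, grouped by role; bars are 95% counting intervals. The red triangles of the overexpression-labelled library lie farthest right for the fibrinogen chains, C3, CFB and VTN, among others, and farthest left for CD46, CD59, F2R and F2RL1.

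The fibrinogen chains ranged widely between libraries. Fibrinogen is assembled from pairs of 3 chains, whose genes FGB, FGA and FGG (ENSG00000171564, ENSG00000171560 and ENSG00000171557) lie next to each other on chromosome 4 and are known for joint expression in hepatocytes, where interleukin-6 raises them in the acute phase. The RefSeq windows from 250 bases before to 50 bases after each start (GRCh38.p14) are shown because every chain passed 2-fold in both main comparisons. Capitals mark, on either strand, the HNF1 half-site GTTAAT, the C/EBP motif TTGCNNAA and the core of the interleukin-6 response element CTGGGA, which were found in 6.88%, 10.5% and 33.3% of all 35116 promoter windows.

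FGA, chr4:154590693-154590992, minus strand: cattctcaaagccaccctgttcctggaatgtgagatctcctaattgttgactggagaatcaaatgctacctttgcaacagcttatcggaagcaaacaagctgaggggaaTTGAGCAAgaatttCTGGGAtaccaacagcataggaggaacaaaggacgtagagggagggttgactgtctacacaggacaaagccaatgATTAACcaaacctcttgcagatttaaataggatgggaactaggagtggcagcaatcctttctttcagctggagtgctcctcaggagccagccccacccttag

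FGB, chr4:154562730-154563029, plus strand: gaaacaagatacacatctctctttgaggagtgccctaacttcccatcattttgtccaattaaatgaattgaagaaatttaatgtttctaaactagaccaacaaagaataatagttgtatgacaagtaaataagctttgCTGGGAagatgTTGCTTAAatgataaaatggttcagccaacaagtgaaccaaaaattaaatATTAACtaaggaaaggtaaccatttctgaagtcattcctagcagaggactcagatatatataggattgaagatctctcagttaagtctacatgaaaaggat

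FGG, chr4:154612607-154612906, minus strand: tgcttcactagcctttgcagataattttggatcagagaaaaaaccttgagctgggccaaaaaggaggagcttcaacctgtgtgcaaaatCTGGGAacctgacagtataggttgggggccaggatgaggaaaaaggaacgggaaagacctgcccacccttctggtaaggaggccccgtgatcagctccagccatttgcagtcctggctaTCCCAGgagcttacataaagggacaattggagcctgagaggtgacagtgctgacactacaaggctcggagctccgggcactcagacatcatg

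FGA and FGB each held all 3 motifs. The HNF1 half-site began 52 bases before the start of FGA and 51 bases before that of FGB, on the opposite strand in both. The C/EBP and interleukin-6 motifs of FGB began 101 and 112 bases before its start, and those of FGA 141 and 127 bases before. FGG held only CTGGGA, 161 bases before the start and, on the opposite strand, 42 bases before it. All 3 motifs occurred together in 0.219% of the 35116 windows. Counted by gene, they did so in a window of 3 of the 26 members found (FGA, FGB and C1R), which had 36 windows. The motifs were chosen with earlier results of these data known, so these counts are no test of the motifs. FGB has a second listed start 31 bases downstream. A match is a run of letters, and binding was not measured in these data.

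FGA, the alpha chain, stood at 16.2 CPM in sc, 2.36 CPM in shDCBLD2, 6.48 CPM in the vector library and 79.1 CPM in the overexpression-labelled library. FGB, the beta chain, stood at 12.9, 2.55, 3.32 and 47.9 CPM in the same order. FGG, the gamma chain, stood at 8.59, 3.20, 3.16 and 40.5 CPM. For each chain the overexpression-labelled library was the highest and sc came next, while shDCBLD2 was the lowest for FGA and FGB and close to the vector library for FGG. Against the vector library the chains were 12.02-fold (FGA), 14.01-fold (FGB) and 12.4-fold (FGG) higher, with log2 ratios of 3.59 (interval 3.34 to 3.89), 3.81 (3.47 to 4.25) and 3.64 (3.29 to 4.09). The intervals of the 3 chains overlapped, so their ratios were not distinguishable at this depth.

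In shDCBLD2 the chains were lower than in sc by unequal amounts. FGA was 6.60-fold lower (log2 -2.72, interval -3.23 to -2.35), FGB 4.89-fold lower (-2.29, -2.79 to -1.91) and FGG 2.63-fold lower (-1.40, -1.85 to -1.01). Here the intervals of FGA and FGG did not overlap. The control lines also differed: the vector library was 2.48-fold (FGA), 3.79-fold (FGB) and 2.66-fold (FGG) below sc. For FGG that gap (log2 -1.41) was as wide as the one between shDCBLD2 and sc, and for FGB it was -1.92 against -2.29. Set against the vector library, shDCBLD2 was still lower for FGA (log2 -1.42), but for FGB the log2 ratio was -0.37 and for FGG 0.02. Set against sc, the overexpression-labelled library was still higher for every chain, with log2 ratios of 2.28 for FGA, 1.89 for FGB and 2.22 for FGG.

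Levels of different genes can be compared only per length, as the deposited FPKM (fragments scaled to gene length and library size). The summed FPKM of the chains was 11.5 in sc, 2.43 in shDCBLD2, 3.67 in the vector library and 48.6 in the overexpression-labelled library. In the latter FGA made up 40.9% of the sum, FGB 36.2% and FGG 23.0%. In shDCBLD2 the shares were 24.7%, 38.7% and 36.6%. FGA was thus the largest of the 3 in the overexpression-labelled library and in the vector library (43.9%), and the smallest in shDCBLD2. Such rankings between chains rest on the deposited exonic sizes, 3956 bases for FGA, 2708 for FGB and 3600 for FGG. Other lengths were not tried. In sc the shares were 36.4% (FGA), 42.3% (FGB) and 21.2% (FGG), so the largest chain also differed between the controls. The 3 chains rested on 175 counts in shDCBLD2 and 238 in the vector library. None of the 3 genes overlaps another gene in the deposited coordinates.

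**Figure D2:**
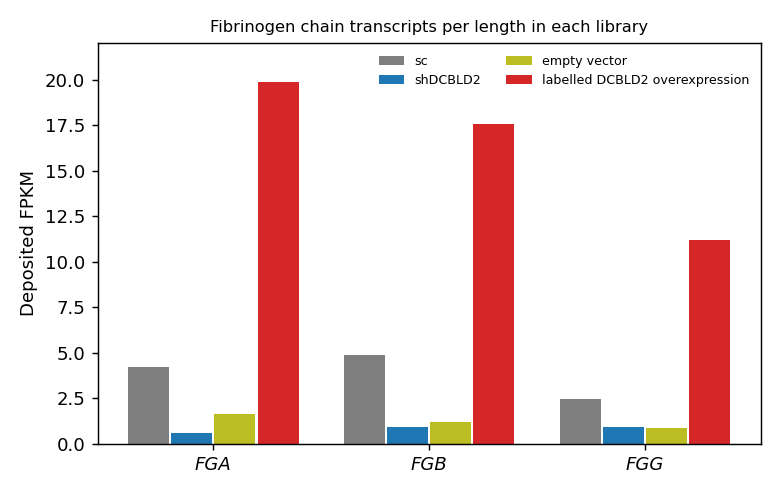
Deposited FPKM of the fibrinogen chains FGA, FGB and FGG, as bars from 0, in the 4 libraries (1 each, so no error bars). The overexpression-labelled library reached 19.9, 17.6 and 11.2 FPKM, while no other library passed 4.87.

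Among the complement components, C3 and CFB were higher in the overexpression-labelled library and, with C5, lower in shDCBLD2. C3, the protein on which all routes of activation meet, was counted at 146 CPM in sc, 61.1 CPM in shDCBLD2, 116 CPM in the vector library and 419 CPM in the overexpression-labelled library. Its ratio to the vector library was 3.62-fold (log2 1.86, interval 1.79 to 1.93), and shDCBLD2 was 2.38-fold below sc (-1.25, -1.35 to -1.16). The control lines differed much less, by a log2 ratio of -0.33. C3 overlaps GPR108 on the same strand, and GPR108, with 3909 counts in all, had log2 ratios of 0.63 and -0.32 in these comparisons.

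CFB, the protease of the alternative pathway's C3 convertase, had lower counts but wider ratios. It was at 3.94 CPM in sc, 0.834 CPM in shDCBLD2, 2.89 CPM in the vector library and 24.3 CPM in the overexpression-labelled library. That was 8.15-fold above the vector library (log2 3.03, interval 2.66 to 3.52), and shDCBLD2 was 4.30-fold below sc (-2.10, -3.07 to -1.48) on 18 against 77 counts. The interval between the control lines included no change (-0.98 to 0.08). CFB has a second entry in the matrix with 0 counts and overlaps C2. The RefSeq window of its promoter held none of the 3 motifs.

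C5, the start of the terminal pathway, passed the rule in shDCBLD2. Its levels were 27.04, 10.01, 31.2 and 23.3 CPM in sc, shDCBLD2, the vector library and the overexpression-labelled library. It was 2.68-fold lower in shDCBLD2 than in sc (log2 -1.42, interval -1.67 to -1.20), while its log2 ratio in the overexpression-labelled library was -0.42 (interval -0.61 to -0.23), short of 2-fold. The difference between the comparisons was not tested. The proteases C1R and C1S, which start the classical pathway, passed the rule in neither comparison. C1R had log2 ratios of 0.56 and -0.72 and C1S of 0.44 and -0.63, each with an interval excluding no change. C1R overlaps C1RL, and C1S overlaps LPCAT3 and EMG1.

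Of the 7 complement regulators, only VTN passed the rule. Vitronectin, its product, blocks the membrane attack complex and also binds integrins. VTN was at 29.8 CPM in sc, 10.9 CPM in shDCBLD2, 21.0 CPM in the vector library and 104 CPM in the overexpression-labelled library. That library was 4.93-fold above the vector library (log2 2.30, interval 2.15 to 2.47), and shDCBLD2 was 2.72-fold below sc (-1.44, -1.68 to -1.23). VTN overlaps SARM1 and TMEM199 on the other strand, and whether counting used the strand is not given in the sources used here. SARM1 had log2 ratios of 1.08 and -0.80 in these comparisons, and TMEM199 of -0.56 and 0.48. The VTN promoter window is shown because VTN, like the fibrinogen chains, passed 2-fold in both comparisons without lying near them. That also held for C3, for which no window was found, and for CFB and SERPINA1, whose windows are not shown. A SERPINA1 window held none of the motifs, and another held GTTAAT and CTGGGA. F2RL1, lower in the overexpression-labelled library, also held GTTAAT and CTGGGA.

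VTN, chr17:28370258-28370557, minus strand: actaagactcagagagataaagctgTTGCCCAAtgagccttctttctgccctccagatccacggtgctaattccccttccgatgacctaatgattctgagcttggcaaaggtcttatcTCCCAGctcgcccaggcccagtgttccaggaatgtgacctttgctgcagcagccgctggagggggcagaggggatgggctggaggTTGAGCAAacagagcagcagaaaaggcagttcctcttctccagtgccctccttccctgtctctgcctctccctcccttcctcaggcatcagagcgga

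It held TTGCNNAA 225 bases before the start and, on the opposite strand, 47 bases before it, and CTGGGA on the opposite strand 132 bases before it.

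None of the membrane-bound shields passed the rule. CD59, which stops the last step of the attack complex, was at 126.9 CPM in sc, 237.9 CPM in shDCBLD2, 144.6 CPM in the vector library and 101.9 CPM in the overexpression-labelled library. Its log2 ratio was 0.91 in shDCBLD2, the highest of the 27 genes in that comparison and just short of the 2-fold rule, and -0.50 in the overexpression-labelled library. CD55, which breaks up the convertases, had log2 ratios of -0.16 and 0.37, the same directions as C3 and VTN, and CD46, a cofactor for the cleavage of C3b, had ratios of 0.01 and -0.08. CLU, the gene of clusterin, a secreted chaperone that binds the terminal complex, was the most counted of the 27 genes, at 596, 575, 701 and 887 CPM in the order sc, shDCBLD2, vector and overexpression-labelled library. CLU also had the highest deposited FPKM of the 35 in every library. CFI, which cleaves C3b, and SERPING1, the inhibitor of C1R and C1S, were below the filter, with 9 to 22 and 0 to 12 counts.

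**Figure D3:**
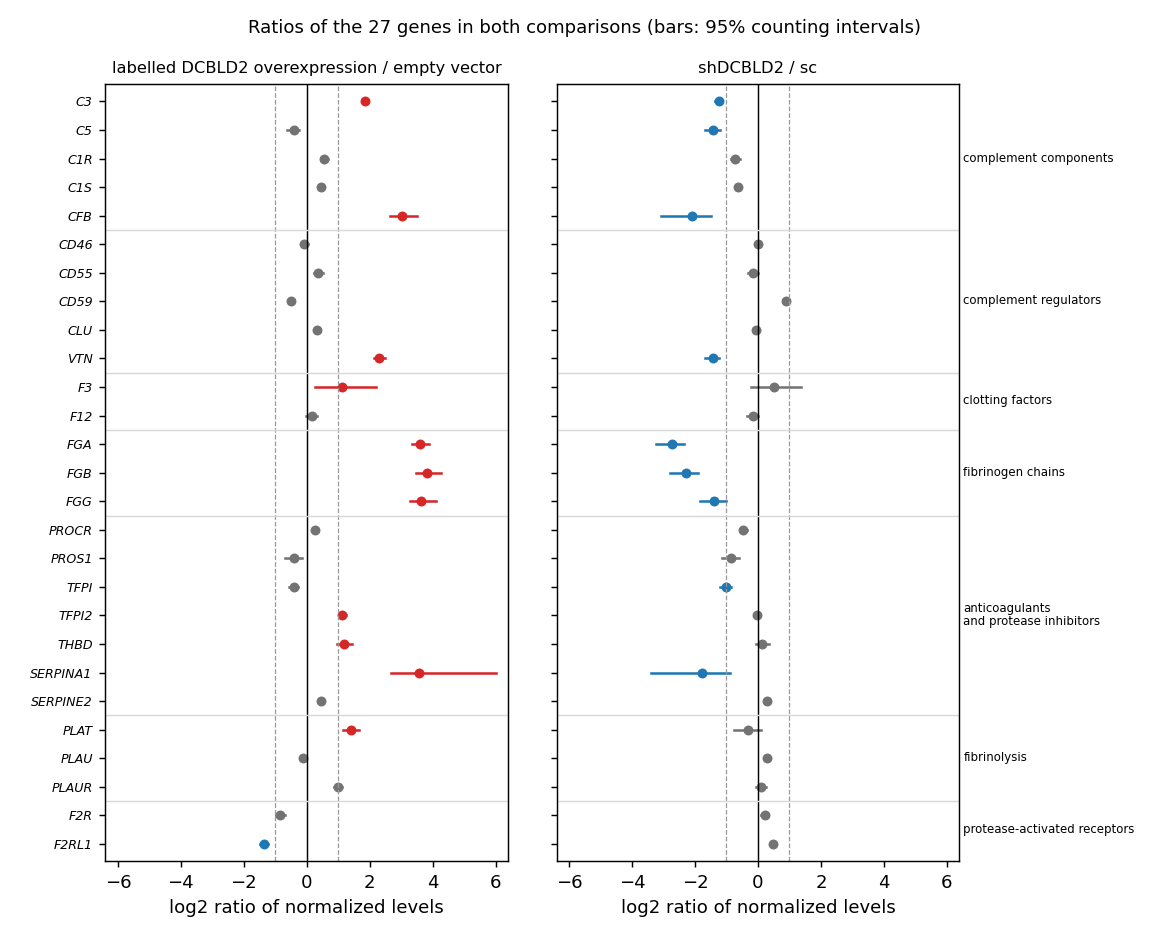
Log2 ratios (x axis) of the 27 genes for the overexpression-labelled library against the vector library (left) and shDCBLD2 against sc (right). Bars are 95% counting intervals, dashed lines mark 2-fold, and colour marks genes past the rule: 11 higher and 1 lower on the left, 9 lower on the right.

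Of the clotting factors and their starters, only F3 and F12 were past the filter. F3 encodes tissue factor, which starts coagulation with factor VII. It was low, at 1.23 CPM in sc, 1.81 CPM in shDCBLD2, 0.817 CPM in the vector library and 1.88 CPM in the overexpression-labelled library. The ratio of the last to the vector library was 2.15-fold, on 31 against 15 counts, with a wide interval (log2 0.27 to 2.20), and it was under 2-fold at a prior count of 5 (log2 0.99) and in the deposited FPKM (0.98). The overexpression-labelled library and shDCBLD2 stood almost level, and against sc neither interval excluded no change. F12, the contact factor, had log2 ratios of 0.16 and -0.16, both with intervals that included no change. It overlaps GRK6 on the other strand, and GRK6, with 7033 counts in all, had log2 ratios of 0.73 and -0.29.

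The remaining clotting factors were near the detection limit. F5, the cofactor of factor Xa, had 31 counts in sc, 2 in shDCBLD2, 1 in the vector library and 17 in the overexpression-labelled library. F7 had 11, 2, 6 and 27 counts in the same order. For both genes the counts were higher in sc and in the overexpression-labelled library than in the other pair. F10 had 1 to 6 counts and KNG1, the precursor of bradykinin, 0 to 3 counts, so no difference was readable there.

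The anticoagulants split. TFPI, the inhibitor of the tissue factor complex, was at 36.9 CPM in sc, 18.1 CPM in shDCBLD2, 54.7 CPM in the vector library and 41.1 CPM in the overexpression-labelled library. It was 2.03-fold lower in shDCBLD2 than in sc, near the threshold (log2 -1.02, interval -1.21 to -0.85), and fell short of it with DESeq2 size factors. TFPI2, a related inhibitor of plasmin and of the tissue factor complex, had 90.9, 88.2, 66.5 and 146 CPM in the same order and was 2.19-fold higher in the overexpression-labelled library than in the vector library (log2 1.13, interval 1.03 to 1.23). TFPI was thus lowest in shDCBLD2, and TFPI2 was highest in the overexpression-labelled library.

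THBD encodes thrombomodulin, which turns thrombin toward activation of protein C. It had 17.1, 18.9, 12.97 and 29.7 CPM in the same order, a 2.28-fold difference between the overexpression-labelled library and the vector library (log2 1.19, interval 0.97 to 1.43). Against sc the log2 ratio was 0.79 for THBD and 0.68 for TFPI2, under the rule for both. PROCR, the receptor of protein C, had log2 ratios of 0.26 in the overexpression-labelled library and -0.46 in shDCBLD2. EDEM2, which PROCR overlaps on the other strand, had ratios of 0.15 and -0.09 in these comparisons. PROS1, the cofactor protein S, was below its control in both, with -0.41 and -0.87.

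SERPINA1 encodes alpha-1-antitrypsin, an acute phase inhibitor of neutrophil elastase that is also used as a hepatocyte marker. It had 30 counts in sc, 8 in shDCBLD2, 4 in the vector library and 62 in the overexpression-labelled library, or 1.53, 0.371, 0.218 and 3.76 CPM. Its log2 ratio of 3.58 against the vector library had an interval from 2.68 to 6.03, and that of -1.78 in shDCBLD2 an interval from -3.38 to -0.89. Since the vector library was 5.07-fold below sc for this gene, the ratio of shDCBLD2 to the vector library was 0.56 (log2). SERPINE2, an inhibitor of thrombin and plasminogen activators on cell surfaces, had ratios of 0.45 and 0.28. SERPINC1, the gene of antithrombin, had 0 counts in all 4 libraries, which allows up to 3 counts each, and A2M, a broad protease trap, had 1 to 6 counts.

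In the fibrinolysis group, PLAT passed the rule in the overexpression-labelled library and PLAU between the control lines. PLAT, the tissue-type plasminogen activator, was at 5.06 CPM in sc, 4.03 CPM in shDCBLD2, 9.37 CPM in the vector library and 24.8 CPM in the overexpression-labelled library. It was 2.63-fold above the vector library (log2 1.39, interval 1.14 to 1.67), and in shDCBLD2 its interval against sc included no change. PLAU, the urokinase-type activator, was at 95.5, 116, 203 and 187 CPM in the same order. The vector and overexpression-labelled libraries were higher than sc and shDCBLD2, and PLAU was 2.13-fold higher in the vector library than in sc (log2 1.09, interval 1.01 to 1.17), whereas its ratio in the overexpression-labelled library was -0.12. PLAUR, the urokinase receptor, had 31.4, 33.4, 40.6 and 81.2 CPM and fell just outside the rule, 1.99-fold above the vector library (interval 0.87 to 1.13 in log2).

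The protease-activated receptors went the other way. F2RL1, the receptor cleaved by trypsin and by tissue factor with factor VIIa, was at 105.5 CPM in sc, 147.9 CPM in shDCBLD2, 117.5 CPM in the vector library and 46.0 CPM in the overexpression-labelled library. It was 2.55-fold lower there than in the vector library (log2 -1.35, interval -1.47 to -1.23) and had a log2 ratio of 0.49 in shDCBLD2. F2R, the thrombin receptor, had 67.1, 77.7, 68.4 and 38.3 CPM, with log2 ratios of -0.84 and 0.21. Both receptors were highest in shDCBLD2 and lowest in the overexpression-labelled library, the reverse of C3 and FGA at both ends. The regulators CD59 and CD46 had the same highest and lowest libraries, CD46 within a narrow range (82.4 to 90.4 CPM).

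The 2 main comparisons share no library, so their directions can be set side by side. Of the 27 genes, 7 (25.9%) were at least 2-fold higher in the overexpression-labelled library and at least 2-fold lower in shDCBLD2, against 2.17% of the 13966 genes: C3, CFB, VTN, FGA, FGB, FGG and SERPINA1. The converse held for 0 of the 27 and for 34 genes in all. For FGA, FGB, FGG and SERPINA1 the vector library was itself at least 2-fold below sc. The low vector level raises the ratio of the overexpression-labelled library, and the higher sc level lowers that of shDCBLD2. Of the 7 genes, only CFB and FGA were past 2-fold against both controls in both libraries. The overexpression-labelled library was the highest of the 4 for 19 of the 27 (70.4%), against 34.2% of all genes, and shDCBLD2 was the lowest for 15 (55.6%), against 30.5%. DCBLD2 itself was below its control in both libraries. Whether the labels of the vector and overexpression-labelled libraries were exchanged was not tested, and with them exchanged these 7 genes would be lower in both comparisons.

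**Figure D4:**
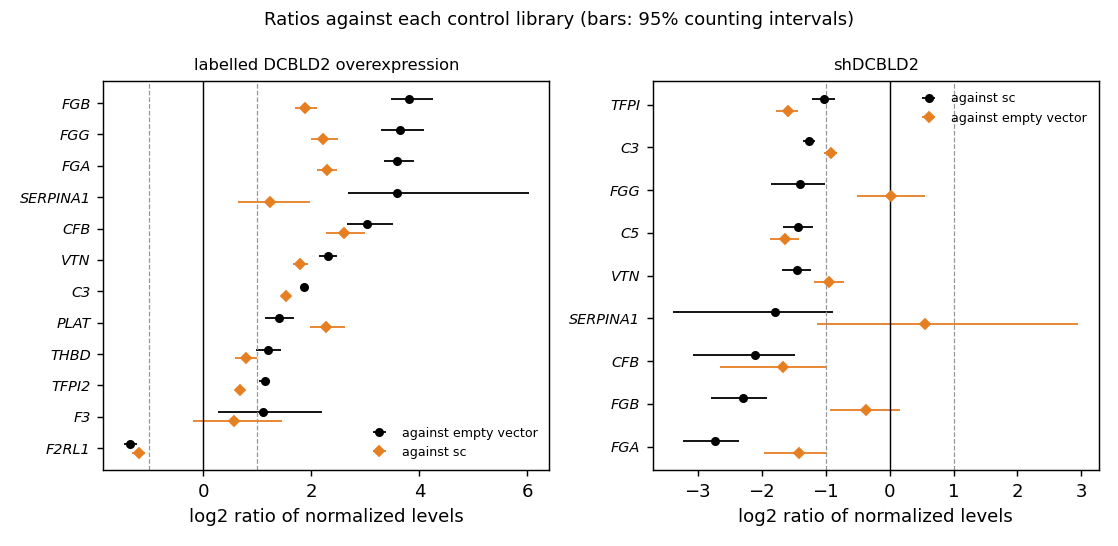
Log2 ratios of the genes past the rule, each against its own control (black circles) and against the other control library (orange diamonds), for the overexpression-labelled library (left) and shDCBLD2 (right); bars are 95% counting intervals and dashed lines mark 2-fold. On the left 9 of 12 genes stay past 2-fold against both controls, and on the right 4 of 9.

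How far each call depended on the control library was read by exchanging the controls. Of the 11 genes higher in the overexpression-labelled library, 8 were at least 2-fold higher against both the vector library and sc (C3, CFB, VTN, FGA, FGB, FGG, SERPINA1 and PLAT), a share close to that over all genes (635 of 897), and F3, TFPI2 and THBD only against the vector library. C1R (log2 1.02) and PLAUR (1.37) passed the rule only against sc. F2RL1 was lower against both. Of the 9 genes lower in shDCBLD2, C5, CFB, FGA and TFPI were lower against both controls, while over all genes 518 of 785 were. C3 and VTN stayed lower against the vector library but short of 2-fold, with log2 ratios of -0.92 and -0.94, and FGB, FGG and SERPINA1 had intervals there that included no change. Against the vector library alone, C1R (log2 -1.18) and PLAT (-1.20) were at least 2-fold lower in shDCBLD2, and F3 was at least 2-fold higher.

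A wider list of 83 further genes of the same cascades held 34 past the filter. Between the overexpression-labelled library and the vector library 8 of these were at least 2-fold higher and 2 lower, against 6.42% and 5.35% of all genes, so the share of lower genes was near that background. C4BPA, a cofactor in C4b breakdown, had the highest log2 ratio, at 3.21, on 139 against 15 counts. For C4BPA the vector library was itself below sc (log2 -1.38), and against sc the ratio was 1.83. Next came ITGAX (2.12), a chain of a receptor for cleaved C3, SERPINI1 (1.79), an inhibitor of tissue-type plasminogen activator, and the bradykinin receptors BDKRB2 (1.27) and BDKRB1 (1.26). The lower pair was F8 (-1.27), the cofactor of factor IX, and PLGRKT (-1.05), a plasminogen receptor.

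In shDCBLD2, 8 of the 34 were at least 2-fold lower than in sc and 2 higher, against 5.62% and 1.16% of all genes. Among the lower were FGL1 (log2 -2.09), a fibrinogen-like protein, C4BPA (-2.08), ITGAX (-1.34) and C1RL (-1.29), and among the higher was THBS1 (1.02), a matrix glycoprotein of platelets and stroma. Set against the vector library, C1RL was still lower (-1.17), whereas the intervals of C4BPA (-0.70) and ITGAX (-0.88) included no change. Of the 9 wider complement genes past the filter, 4 were higher in the first comparison and 5 lower in the second, with 0 in the converse direction. Of the 15 wider clotting genes the counts were 3 higher and 1 lower, then 0 higher and 2 lower. Of the 10 wider fibrinolysis genes they were 1 and 1, then 2 and 1.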

How the data were processed

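RNA-seq was run on 4 libraries of A549 cells, 1 per condition, from poly(A) RNA. The authors deposited raw read counts per gene, not normalized, and FPKM values made from these counts and the exonic gene size. The 4 files of single samples equalled the columns of the matrix. The aligner, counter and strand setting are not given in the sources used here. The submitters' processing notes name the build mm9, a mouse build, although the gene identifiers are human, and 0 of the 35 genes lay at their GENCODE 29 position, so no deposited coordinate was printed. Of the 35 genes, 18 overlap another gene there.

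Counts were scaled with TMM factors (edgeR 4.0.16, R 4.3.3), with DESeq2 1.42.0 size factors as an alternative. Ratios used a prior count of 2, and genes with a mean of at least 1 CPM entered the summaries (Python 3.11.15, numpy 2.4.6, scipy 1.17.1, pandas 2.3.3, matplotlib 3.10.9). A gene passed the rule at 2-fold or more with a 95% interval excluding no change. Where a symbol had several entries, the one with most counts was used. No count test could be run with 1 library per condition, and the depth, at least 16601633 counts per library, limits only counting error. The ratio script was checked on simulated counts. Every member past the rule in any of the 3 comparisons was given with its level in all libraries, and of the wider lists the 5 (acute phase and liver lists 3) highest and lowest past it, of which 2 are not reported here. The members, lists and motifs were chosen with earlier results of these data known. Promoter windows came from RefSeq (GRCh38.p14), which held 26 of the 35 genes.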

Additional observations from a re-analysis of the deposited data

How the results depend on the processing

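With the vector library as control in place of sc, the log2 ratio in shDCBLD2 turned to 0.017 for FGG and 0.56 for SERPINA1, and 1 gene was higher. With sc as control, the median of the overexpression-labelled library was 0.73, and without an expression filter it was 0.82. At a 1.5-fold threshold 2 genes were lower in that library, 1 was higher in shDCBLD2 and 2 were higher in the vector library than in sc, where thinning all libraries to the smallest total also gave 2. The other 83 recomputed counts and medians stayed within 1.5 times (counts) or within the range set for medians. They came from other scalings, prior counts, filters and controls. Among them, the genes lower in shDCBLD2 went from 9 to 6 with the vector library as control, at the edge of that limit. Only 4 of the 9 were lower against both controls. Of single genes' ratios, 184 stayed within their counting interval and 17 moved outside it without changing direction. These tallies include settings that could not change a result. Summing entries could not, since only CFB has another entry, without counts, and a 1.5-fold threshold cannot alter a median. No paired analysis was possible because no condition has a replicate. With DESeq2 size factors TFPI lost its call, and F3 did at a prior count of 5 and in the deposited FPKM. The genes higher in the overexpression-labelled library went from 11 to 12 with DESeq2 size factors and with library totals alone. PLAUR (log2 0.996) was the gene nearest below that threshold in the main setting. Depth limits the genes under 1 CPM, and F3 and SERPINA1, whose smallest counts were 15 and 4.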

Other observations

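Other secreted proteins of the liver and of the acute phase were described in the same libraries. Of 21 acute phase genes, 10 were past the filter, of which 3 were at least 2-fold higher in the overexpression-labelled library than in the vector library and 4 were at least 2-fold lower in shDCBLD2 than in sc, against 6.42% and 5.62% of the 13966 genes past the filter. LCN2, a siderophore-binding protein of epithelia and neutrophils, had the widest range, at 19.6 CPM in sc, 0.881 CPM in shDCBLD2, 13.9 CPM in the vector library and 123 CPM in the overexpression-labelled library. Its log2 ratios were 3.14 and -4.32. CP, the copper carrier ceruloplasmin, had log2 ratios of 1.00 and -2.43. SAA1, an apolipoprotein of inflammation, had 11, 0, 22 and 79 counts in the order sc, shDCBLD2, vector and overexpression-labelled library. CEBPD, a transcription factor of the acute phase, was lower in shDCBLD2 (-1.25) and had a ratio of 0.08 in the other comparison. The median of the 10 was -0.02 in the first comparison and -0.57 in the second.

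Of 24 liver plasma protein genes, 8 were past the filter. Against the vector library 3 were higher (all genes, 6.42%) in the overexpression-labelled library, RBP4 (log2 1.88), a carrier of retinol, ITIH2 (1.59), a hyaluronan-binding protein, and APOH (1.38), a phospholipid-binding protein, and APOC1 was lower (-1.67), against 5.35% of all genes. In shDCBLD2 5 were lower than in sc (all genes, 5.62%), the lowest being SERPINA6 (-3.16), a carrier of cortisol, RBP4 (-2.39) and APOH (-1.85). Against sc, 0 of the 8 passed the rule in the overexpression-labelled library. Albumin, transthyretin and APOA1 had 0 to 2 counts in each library.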
